A study of Mus musculus with 12 samples.

Results

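The genes that encode the proteins of the cytosolic ribosome were followed through whole mouse spinal cord with and without experimental autoimmune encephalomyelitis (EAE), a model of multiple sclerosis in which immunization sets T cells against myelin. They were chosen by symbol and biotype: protein-coding genes named as large-subunit proteins (Rpl, and the stalk proteins Rplp0, Rplp1 and Rplp2) or small-subunit proteins (Rps and Rpsa), without the S6 kinases. The rule found 83 genes among the 54532 of the count table, 51 of the large and 32 of the small subunit, on 19 chromosomes. Of these, 81 passed the filter on low counts when all 12 libraries were fitted together, and 80 passed it in the 6 EAE libraries. The testis-type copy Rpl10l had 0 counts in every library and Rpl39l 23 counts in all, and the muscle-type Rpl3l fell below the filter at EAE.

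A ribosome is built from ribosomal RNA and one copy of most of these proteins, so that a cell needs them in like amounts. Their mRNAs begin with a pyrimidine run, the 5′ terminal oligopyrimidine (TOP) motif, through which mTOR signalling and the RNA-binding protein LARP1 set how actively they are translated. Proliferating and activated immune cells build many ribosomes, and neurons and glia also need them to make and renew their proteins. Beyond the ribosome, Rpl5 and Rpl11 bind the p53 inhibitor Mdm2, Rps6 is phosphorylated by S6 kinases, and Rps27a is made as a fusion with ubiquitin.

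All mice were of the C57BL/6 strain, aged 2 to 3 months. In the cKO mice Drd2, which encodes a dopamine receptor, is conditionally deleted, with the label Drd2mGFAP naming the promoter of GFAP, an astrocyte gene. Their littermate controls are labelled wt. Both genotypes were sampled in the basal state and at day 17 of EAE, which the series calls its peak, giving 4 groups of 3 libraries (basal and EAE, each in control and cKO mice), every library labelled a biological replicate. The labels do not give the driver line, the recombined fraction of astrocytes or the sex of the mice.

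Library totals ran from 15128913 to 17592105 counts, and members held 143479 to 1022237 of them. Drd2 was present in every group, at 21.9 ± 4.02 (control) and 28.6 ± 9.50 CPM (cKO) in the basal state, and at 9.17 ± 0.396 (control) and 12.9 ± 6.34 CPM (cKO) with EAE (SD, n = 3), so that whole-cord RNA did not show a lower level in the libraries labelled cKO. Xist stood at 316 to 753 CPM in all 6 basal libraries and at 0 to 0.287 CPM in all 6 EAE libraries, while the Y-linked Ddx3y was at 0 in the basal and at 69.7 to 74.5 CPM in the EAE libraries. EAE and sex therefore cannot be told apart, whereas the genotypes were compared within one sex. Library 2 of the cKO basal group (cKO basal 2) stood apart, with 17220 genes detected against 24303 to 26056 in the others, and members' results that rest on it are given with and without it. In bulk RNA, fewer cells of a type and less RNA per cell cannot be told apart.

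The annotated start of a minority of the members showed the pyrimidine run, which is given here as a description of the family. RefSeq windows on build GRCm38.p6 were matched for 63 of the 83 members by symbol. A C at the annotated start followed by at least 4 further pyrimidines was found in 13 of the 63 (20.6%), against 3.01% of the 27025 genes with a window. Each line below gives 10 bases before and 20 bases from the annotated start on, 5′ to 3′, with a C-led pyrimidine run in capitals where it begins at the start, or where its first base is a C within 5 bases of the start. The first 6 members have it, and the last 4 are genes on which later results turn.
Rps6, chr4:86857348-86857377, minus strand: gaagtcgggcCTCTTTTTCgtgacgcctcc
Rpl15, chr14:18270967-18270996, minus strand: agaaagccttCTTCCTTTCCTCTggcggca
Rpl35, chr2:39005112-39005141, minus strand: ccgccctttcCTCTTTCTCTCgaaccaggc
Rps27, chr3:90213629-90213658, minus strand: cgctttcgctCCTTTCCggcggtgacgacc
Rpl38, chr11:114668570-114668599, plus strand: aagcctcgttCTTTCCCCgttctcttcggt
Rplp2, chr7:141447641-141447670, plus strand: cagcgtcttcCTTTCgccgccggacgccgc
Rplp0, chr5:115559457-115559486, plus strand: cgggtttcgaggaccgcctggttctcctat
Rpl41, chr10:128549149-128549178, minus strand: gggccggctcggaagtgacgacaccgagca
Rpl22l1, chr3:28805498-28805527, plus strand: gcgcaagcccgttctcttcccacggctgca
Rps27l, chr9:66946076-66946105, plus strand: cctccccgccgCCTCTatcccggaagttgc

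The lines of Rplp0 and Rpl41 hold no such run there, and that of Rps27l begins 1 base after the annotated start. Rpl22l1 also has a pyrimidine run 1 base after its start, but it is led by a T and so was not counted or capitalised. With a first base of C required, 23 of 63 members had a run within 5 bases on either side of the start (36.5%), against 15.6% of all genes. In the full windows of 250 bases before and 50 bases after the start, both strands searched, the letters CCGGAAG stood in 26 of 63 members (41.3%) against 9.93% of genes. The letters AAGATGGCG stood in 4 of 63 (6.35%) against 1.64%, and CTCTTTC, which can overlap the pyrimidine run, in 18 of 63 (28.6%) against 9.28%. TATAAA stood in 7 of 63 (11.1%) against 15.7% of genes. A match is a string of letters, not a bound site. Members with the run exactly at the start had a median log2 fold change of -0.52 for cKO against control at EAE (13 members), beside -0.61 for the 47 others with a window that were tested.

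Levels between genes were compared per length, as TPM, a length-scaled share of the library, from the counts and the gene length of the table. For most members that length covers all annotated exons together. For Rplp2 it is 2072 bases, where the principal coding transcript has 421, and for Rplp1 it is 499 bases in both. The order of members and the ratios between them depend on this length, while the change of a ratio between libraries does not. Without cKO basal 2 the members had a median of 265 TPM, with quartiles of 122 and 408 TPM. By the mean over all 12 libraries the highest were Rplp1, an acidic stalk protein, Rpl36, Rps15, Rps3a1 and Rpl41, whose protein is a short basic peptide. Over the other 11 libraries Rplp1 was still first, at 2056 TPM, and Rpl4 took the place of Rpl41 among the first 5. The lowest were Rpl24 at 7.08 TPM, Rps10 at 3.81, Rpl3l at 1.21, Rpl39l at 0.51 and Rpl10l at 0.

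The low values of Rpl24 and Rps10, core proteins of their subunits, came with shared sequence. Of the 100-base stretches of their transcripts, 80.1% and 89.5% also occur in other annotated genes. Of the exon bases of Rpl24, 47.0% are overlapped by the same-strand gene Gm28037, and of those of Rps10 28.7% by RPS10-NUDT3 on the same or Gm15420 on the opposite strand. Gm28037 and RPS10-NUDT3 had 0 counts in all libraries. The pseudogene Rps10-ps2 held 11709 counts, against 565 for Rps10. Rpl13a, a protein with a second role in translational silencing of inflammatory mRNAs, also stood low at 18.8 TPM, with 55.2% of its 100-base stretches shared. Of its exon bases, 35.4% are overlapped by the same-strand genes Gm45713, Mir5121 and Snord33, and Gm45713 had 0 counts in all libraries. Across the 82 members with counts, the rank correlation of TPM with the shared percentage was -0.11 and with gene length -0.49, as a description. Gene length is itself the divisor in TPM. Members with under 10% of their 100-base stretches shared had a median of 187 TPM. Those with 10 to 50% had 303 TPM, and those with 50% or more had 270 TPM. The part of shared or overlapped sequence in the low values was not tested. Levels of single members remain uncertain where copies exist.

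Seen library by library, the family moved as a block, and it did so between libraries of the same group as well as between groups. Members took 1.59%, 0.937% and 0.972% of all counts in the 3 control basal libraries, and 0.952%, 6.76% and 0.903% in the cKO basal libraries. They took 1.92%, 1.64% and 1.62% in control EAE and 1.10%, 1.31% and 0.928% in cKO EAE. All 3 control EAE libraries lay above all 3 cKO EAE libraries. Control basal 1 lay close to the control EAE libraries, cKO EAE 3 lay at the level of the basal libraries, and cKO basal 2 lay far above the rest.

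**Figure D1:**
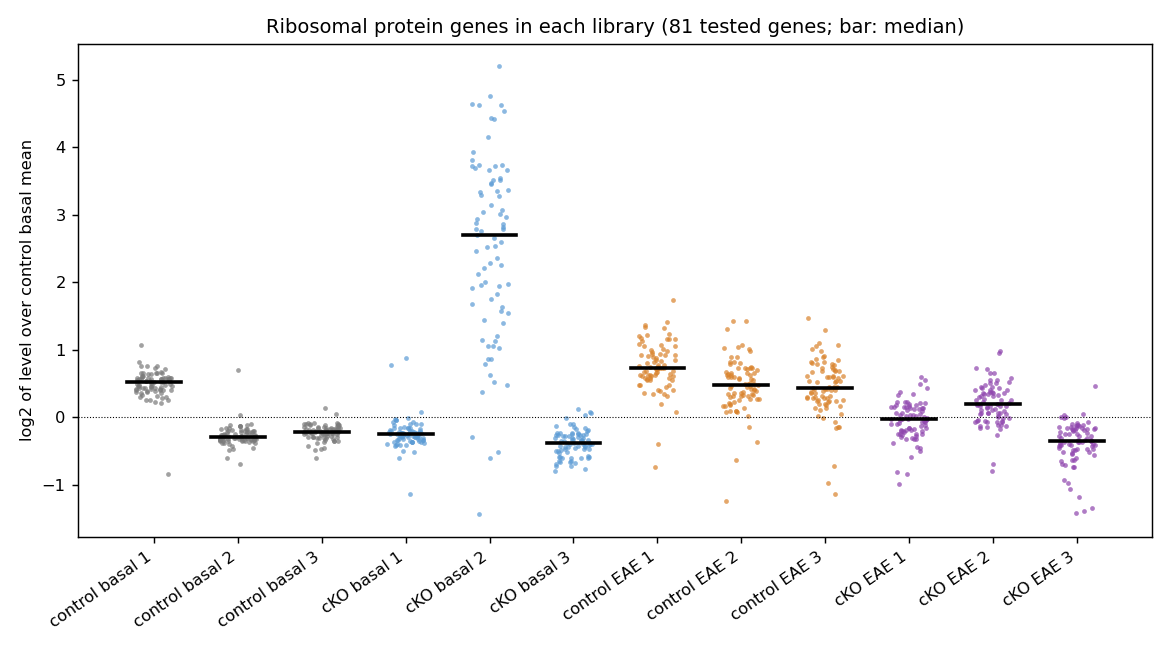
Each point is 1 of the 81 tested ribosomal protein genes in 1 library, as log2 of its TMM-normalised CPM over the mean of the control basal libraries, and the black bar is the median of the library. The medians were 0.73, 0.48 and 0.43 in control EAE and -0.03, 0.20 and -0.35 in cKO EAE, while cKO basal 2 had a median of 2.70.

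Within one library most members sat on the same side. In control basal 1, 80 of 81 were above the control basal mean, and in the other 2 control basal libraries 2 of 81 were. In control EAE the counts were 79, 77 and 73 of 81, and in cKO EAE 36, 61 and 5. Over all tested genes, 48.8% to 51.7% lay above that mean in each library but cKO basal 2, where 42.4% did. Control EAE 1 was the highest of the 6 EAE libraries for 72 of 81 members, and cKO EAE 3 the lowest for 75. The share of large-subunit counts to small-subunit counts kept between 1.33 and 1.52 in all 12 libraries.

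The first comparison asked how EAE changed the family in control mice. The fitted log2 fold change was positive for 77 of 81 members, with a median of 0.52 beside -0.01 over all 18601 genes tested. The groups did not overlap for part of the members: 32 of 81 (39.5%) had all 3 EAE libraries above all 3 basal ones, where 29.8% of all tested genes did, and 1 of 81 had them all below, where 27.0% did. With all 12 libraries in the edgeR quasi-likelihood fit, 1 member passed a Benjamini-Hochberg adjusted p of 0.05, on a background of 12.1% of genes called higher. It was Rps27l. None was called lower (background 5.05%), and 7 had an unadjusted p below 0.05 (background 28.6%).

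That fit takes its spread from all 12 libraries, including cKO basal 2, in which members varied most. Without that library, 32 of 81 members were called higher (background 23.8%) and 1 lower (19.1%), 33 in all (42.9%), with nearly the same median of 0.53. Control basal 1 also mattered, as members were high in it. Without both libraries, an alternative added once the data had been seen, 68 members were called higher (background 24.6%) and 1 lower (19.5%), and the median was 0.82 with 2 control basal libraries left. Without control EAE 1 the median was 0.33, with 70 of 81 members positive. The size of the difference thus depended on control basal 1 and on control EAE 1, and the number called on cKO basal 2 and control basal 1. In control basal 1, genes as a whole differed with length from the other 2 libraries of its group. For up to 1000, over 1000 to 2000, over 2000 to 4000 and over 4000 bases their median log2 ratios were 0.27, 0.33, 0.16 and -0.14. Those of the members were 0.71, 0.83, 0.75 and 0.65, above 0 in each class. The part of the shift with length in the result was not tested.

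**Figure D2:**
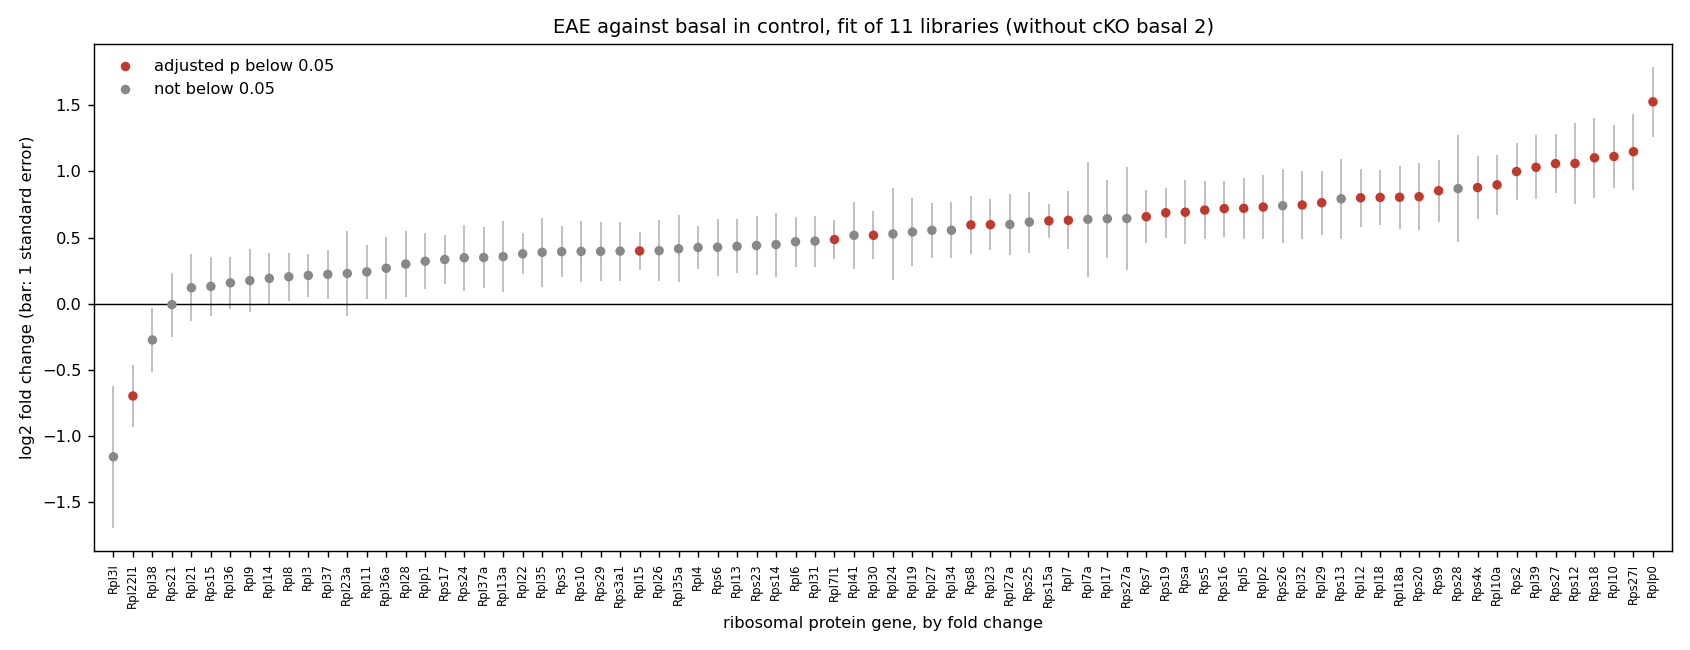
Each point is the log2 fold change of 1 ribosomal protein gene, EAE against basal in control mice, in the fit of the 11 libraries without cKO basal 2, with 1 standard error as a bar; red marks an adjusted p below 0.05. Most genes lie above 0, Rplp0 is highest at 1.53, and Rpl22l1 is the called gene below 0, at -0.70.

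Rplp0 (chromosome 5, 115559467 to 115563727, plus strand, mm10) encodes the base of the stalk that recruits translation factors. It was measured at 293, 181 and 195 CPM in the control basal libraries and at 730, 585 and 604 CPM in control EAE. In cKO mice it was at 186, 1064 and 165 CPM in the basal and at 330, 429 and 196 CPM in the EAE libraries. The control groups did not overlap, and Rplp0 had the largest fitted log2 fold change of the 81 members. The log2 fold change in control mice was 1.52 (SE 0.63, edgeR adjusted p = 0.14) with all libraries and 1.53 (SE 0.26, adjusted p = 0.001) without cKO basal 2.

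The other stalk proteins did not follow it to the same extent. Rplp1 went from 300 ± 89.8 to 372 ± 49.6 CPM and Rplp2 from 89.3 ± 34.0 to 147 ± 16.2 CPM in control mice (SD, n = 3). Their fitted log2 fold changes were 0.31 (SE 1.03, adjusted p = 0.90) and 0.72 (SE 1.06, adjusted p = 0.74). Per length, Rplp0 stood at 285% to 337% of Rplp2 in the control basal libraries and at 516% to 555% in control EAE, a pair chosen after its values were seen. This ratio is taken within a library, so a shift shared by both genes does not enter it. Its size rests on the table's lengths, 1659 bases for Rplp0 and 2072 for Rplp2, while its change between libraries does not. The principal coding transcripts have 1358 and 421 bases.

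Rps27l encodes a paralog of the small-subunit protein Rps27 and is known as a target of p53. Its levels were 17.7, 9.78 and 9.61 CPM in control basal and 27.9, 24.9 and 29.0 CPM in control EAE. In cKO mice they were 9.71, 16.5 and 10.3 CPM in the basal and 17.4, 18.8 and 8.90 CPM in the EAE libraries. The log2 fold change in control mice was 1.14 (SE 0.35, edgeR adjusted p = 0.047), and this call was lost without any single one of 9 libraries, where the adjusted p ran up to 0.18. No 100-base stretch of Rps27l occurs in another annotated gene.

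Rps2 and Rps7, core proteins of the small subunit, had the next smallest p. Rps2 went from 189, 127 and 131 CPM to 327, 272 and 290 CPM in control mice. Rps7 went from 276, 169 and 159 CPM to 342, 308 and 297 CPM. The groups did not overlap for either gene, although control basal 1 lay well above its 2 partners in both. Their log2 fold changes were 0.99 (SE 0.39, edgeR adjusted p = 0.12) and 0.65 (SE 0.24, adjusted p = 0.091), and both were called without cKO basal 2.

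Among the members fixed for every comparison, Rpsa, which also serves as a laminin receptor, had a log2 fold change of 0.68 (SE 0.85), Rpl5 0.71 (SE 0.53) and Rps6 0.42 (SE 0.42). Those of Rpl13a, Rpl11 and Rps27a were 0.35, 0.23 and 0.64. None passed with all libraries, and Rpsa, Rpl5 and Rplp2 were called without cKO basal 2. Rpl11 had a value of -0.032 without control EAE 1, so that its direction was not settled.

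Rpl22l1, the paralog that can take the place of Rpl22 in the large subunit, went against the family. It was measured at 27.3, 18.7 and 20.1 CPM in control basal and at 16.6, 14.0 and 9.85 CPM in control EAE. In cKO mice it was at 21.1, 238 and 16.6 CPM in the basal and at 12.1, 12.5 and 8.15 CPM in the EAE libraries. The 3 EAE libraries lay below the 3 basal libraries in either genotype. The log2 fold change in control mice was -0.71 (SE 0.81, edgeR adjusted p = 0.65) with all libraries and -0.70 (SE 0.23, adjusted p = 0.032) without cKO basal 2.

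Its partner Rpl22 read 98.0 ± 15.7 CPM in control basal and 127 ± 16.5 CPM in control EAE (SD, n = 3), a log2 fold change of 0.37 (SE 0.69, edgeR adjusted p = 0.80). Per length, Rpl22l1 stood at 34.4%, 30.5% and 33.4% of Rpl22 in control basal and at 16.7%, 17.4% and 12.4% in control EAE. In cKO mice the ratio was 34.0%, 46.9% and 32.9% in the basal and 19.5%, 16.7% and 14.5% in the EAE libraries. All 6 EAE libraries lay below all 6 basal ones, cKO basal 2 and control basal 1 included. The size of the ratio, unlike its change, rests on the table's lengths, 1989 bases for Rpl22l1 and 2911 for Rpl22. The mean log2 difference was -1.09 in control and -1.16 in cKO mice, each with an exact two-sided permutation p of 0.1, the smallest that 3 against 3 libraries allow. Without overlap of the groups this p could take no other value. Only this pair was tested so, and Rpl22l1 deviated most from the family in these same libraries among members of at least 10 CPM. The p therefore adds nothing to the separation of the ratios. Of the 100-base stretches of Rpl22l1, 40.6% are shared with the pseudogene Gm15421, which held 130 counts in all against 5636.

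The other paralog pairs had positive log2 fold changes in control mice, except for Rpl3l, which was too low to read. Rpl7l1 had a log2 fold change of 0.48 (SE 0.23, edgeR adjusted p = 0.21) in control mice, Rpl7 0.62 (SE 0.46), Rpl10 1.11 (SE 0.46), Rpl39 1.02 (SE 0.68), Rps4x 0.87 (SE 0.74) and Rpl3 0.21 (SE 0.64). None of these passed with all libraries, and all but Rpl3 were called without cKO basal 2. Rpl3l stood at 0.658 ± 0.338 CPM in control basal and 0.292 ± 0.0547 in control EAE, with 117 counts in all libraries together. Rps4l is annotated as a pseudogene and was no member.

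Rps27 and its near copy Rps27rt cannot be counted apart, as 98.4% of the 100-base stretches of Rps27 also occur in other genes. In control EAE, Rps27 read 125, 169 and 109 CPM and Rps27rt 98.4, 23.1 and 94.3 CPM. Their sums were even, at 224, 192 and 203 CPM, against 190, 82.1 and 91.2 CPM in control basal. The high value of Rps27 in control EAE 2 is thus matched by a low value of its copy.

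By the mean absolute deviation from the family over 11 libraries, the members that followed it least were Rpl22l1 (0.60 in log2), Rpl7a (0.39), Rplp0 (0.39), Rpl38 (0.36) and Rps27a (0.36), against a median of 0.13 over the 78 members of at least 10 CPM. Rpl38, a protein needed for the translation of a subset of mRNAs in development, read 124, 76.2 and 84.0 CPM in control basal and 106, 71.6 and 56.2 CPM in control EAE, with overlapping groups and a log2 fold change of -0.28 (SE 1.05, edgeR adjusted p = 0.91). Rps27a was uneven within groups, with 107 and 39.2 CPM in cKO basal 1 and 3 and 145 CPM in control EAE 2, against 72.6 and 64.5 CPM in its partners. Rpl7a read 79.1, 24.7 and 27.0 CPM in control basal and 84.2, 48.0 and 70.0 CPM in control EAE, with 73.5% of its 100-base stretches shared with other genes.

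**Figure D3:**
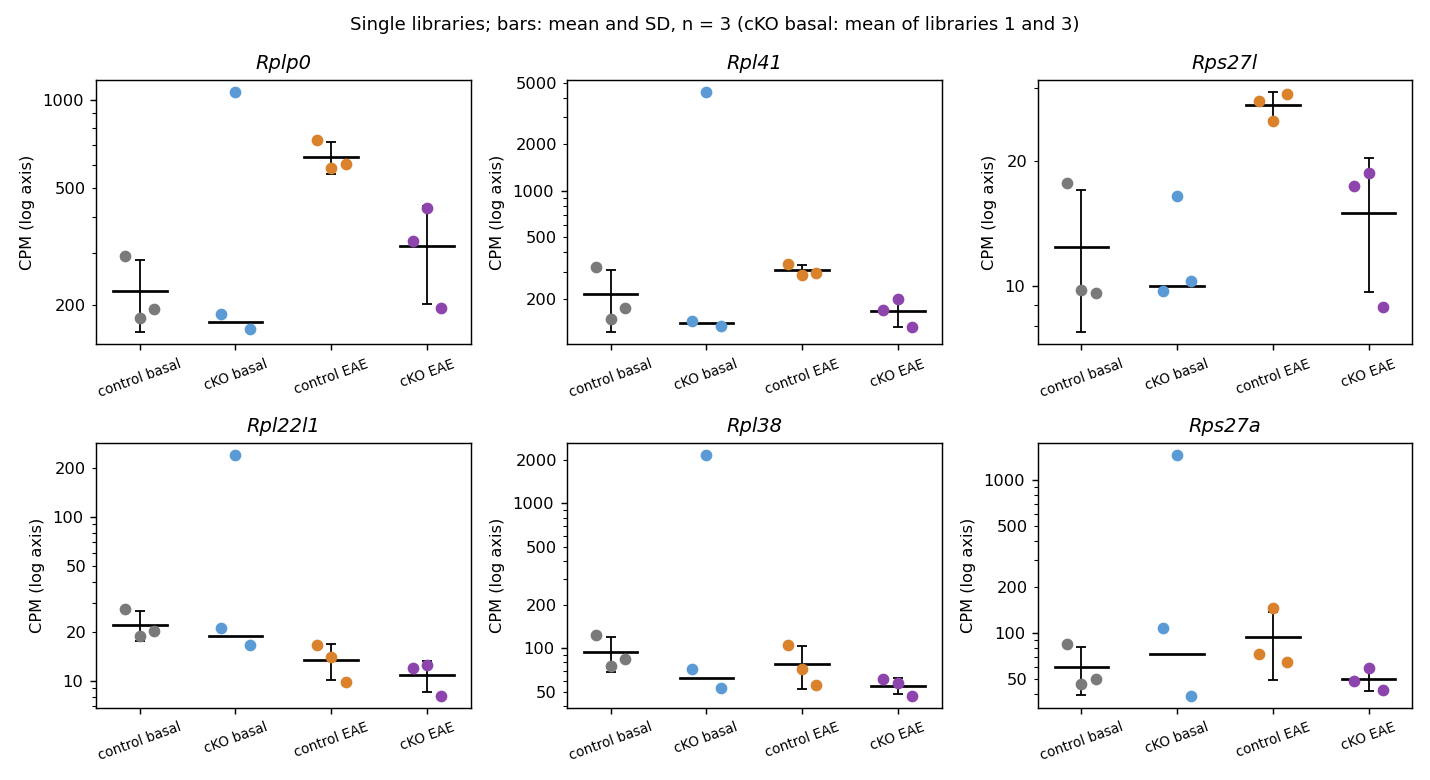
CPM on a log axis in single libraries for 6 ribosomal protein genes, by group; the bars are mean and SD over 3 libraries, and in cKO basal the mean of libraries 1 and 3. Rplp0 and Rps27l are higher in control EAE than in control basal, Rpl22l1 is lower in both EAE groups, and cKO basal 2 lies above its partners in each of the 6 panels.

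Other genes of translation were read in both fits for EAE in control mice, on a background of 12.1% of genes higher and 5.05% lower with all libraries, and of 23.8% and 19.1% without cKO basal 2. Of 21 genes known for TOP mRNAs outside the family, 19 had a positive log2 fold change and the median was 0.33. Without cKO basal 2, 7 of the 21 were called higher (33.3%) and none lower. The 2 called with all libraries were Pabpc1, the poly(A)-binding protein, at 2.07 (SE 0.42, edgeR adjusted p = 0.0076), and Eef1a1, an elongation factor, at 1.25 (SE 0.29, adjusted p = 0.015). Rack1, a scaffold on the small subunit, had 1.36 (SE 0.44, adjusted p = 0.056). Fau, whose product is cleaved to a ribosomal protein and a ubiquitin-like protein, had 0.74 (SE 0.89).

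Of 39 ribosome biogenesis genes the median was -0.01, and 2 were called higher: Myc, a transcription factor that drives ribosome production, at 2.00 (SE 0.45, edgeR adjusted p = 0.012), and Taf1d, a factor of RNA polymerase I. Of 29 initiation and elongation factors, 3 were called higher (Eif4ebp1, an inhibitor of cap binding, Eif2ak2, the interferon-induced kinase PKR, and the helicase Eif4a1) and 2 lower (Eef1a2 and Eif4a2, forms abundant in neurons). In a list of 16 genes drawn up for the mTOR to S6 kinase axis 2 were called higher, Rps6ka1 and Rps6ka3. Neither Mtor nor the S6 kinase genes Rps6kb1 and Rps6kb2 were among the called, and Rps6kb1, which encodes a kinase of Rps6, had 0.08 (SE 0.21). In a list of 11 genes of ribosome quality control or stress sensing 2 were called higher, Mdm2 and Ascc3. Without cKO basal 2, 5 biogenesis genes were called higher and 5 lower, 8 factors higher and 6 lower, 2 genes of the mTOR list higher and 2 lower, and 4 of the quality control and stress list higher, with medians of -0.0021, 0.09, -0.11 and 0.08.

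The mitochondrial ribosome and the respiratory chain had mostly negative log2 fold changes. Of 77 tested mitochondrial ribosomal protein genes, 71 had a negative log2 fold change and the median was -0.37. Of these genes 2 were called lower with all libraries and 24 without cKO basal 2 (31.2%, background 19.1%). Of 87 tested genes of the respiratory chain 83 were negative and the median was -0.64. Of these genes 3 were called lower and 1 higher with all libraries, and 62 lower (71.3%, background 19.1%) and 1 higher without cKO basal 2, with a median of -0.63. The named pseudogenes of the cytosolic family had a median of 0.55 over the 63 tested, none called (3 at an unadjusted p below 0.05), and 0.52 over 65 without cKO basal 2, 17 called higher (26.2%, background 23.8%).

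Within each class of gene length the members' median lay above that of protein-coding genes. In the 4 classes (up to 1000, over 1000 to 2000, over 2000 to 4000 and over 4000 bases) the members' medians in control mice were 0.35, 0.53, 0.55 and 0.65. Those of all protein-coding genes in the same classes were -0.16, -0.11, -0.04 and 0.03. The classes held 12, 34, 29 and 6 members.

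The comparison that the study's title points to is that of the genotypes at EAE. There the family was lower in cKO mice as a whole: all 80 tested members had a negative log2 fold change, from -1.45 (Rpl7a) to -0.14 (Rpl17), with a median of -0.57 beside 0.00 over all 17914 genes tested. In 73 of 80 members (91.2%) all 3 cKO libraries lay below all 3 control libraries, where 26.7% of all genes did. In edgeR's quasi-likelihood test, 74 of 80 members had an unadjusted p below 0.05 (background 35.9% in either direction), and 5 passed the adjusted p of 0.05, all lower (background 1.54% lower, 6.13% higher and 7.67% in either direction). The members share libraries and so are not independent of each other.

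**Figure D4:**
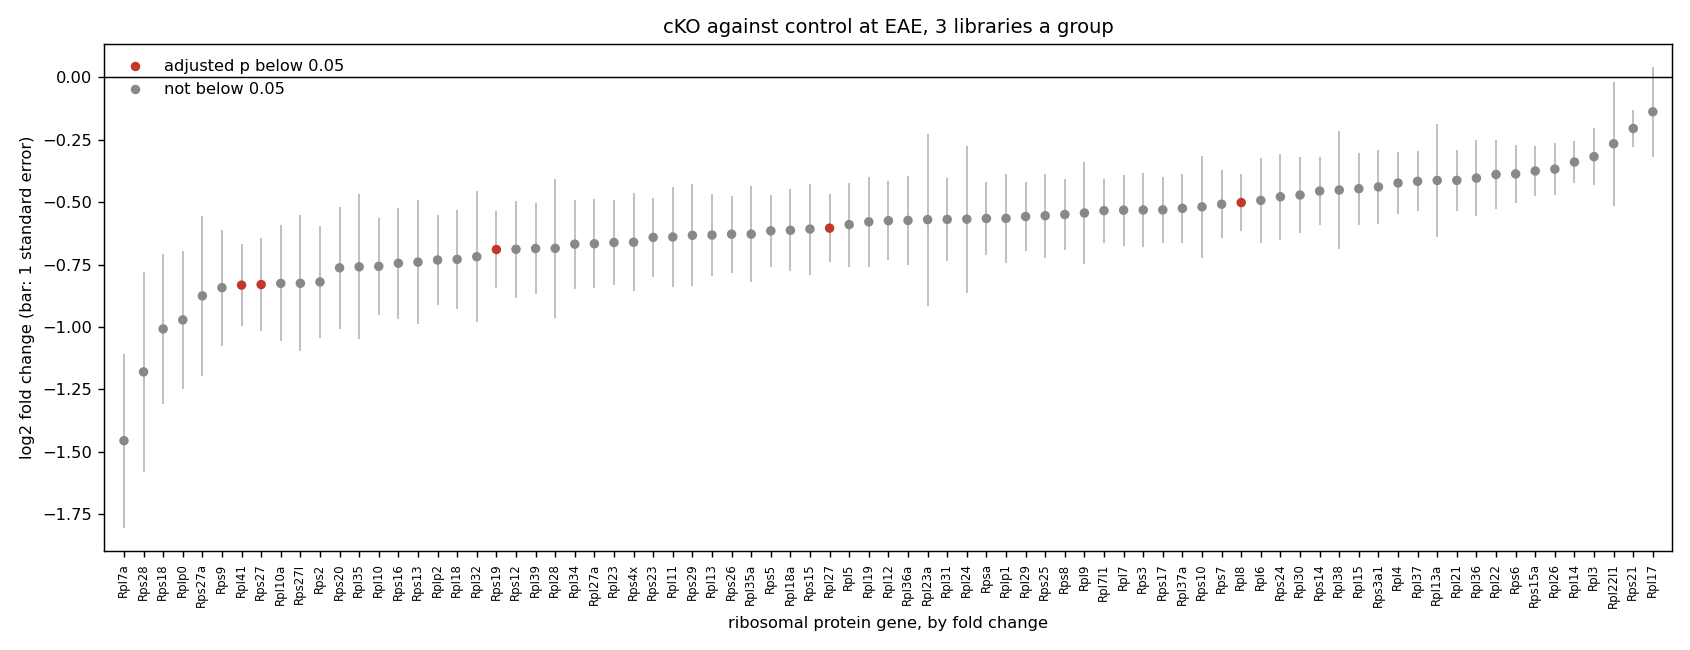
Each point is the log2 fold change of 1 ribosomal protein gene, cKO against control at EAE, with 1 standard error as a bar; red marks an adjusted p below 0.05. All points drawn lie below 0, and the 5 called genes are spread between -0.83 and -0.50.

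The 5 called members were Rpl41, Rps27, Rps19, Rpl27 and Rpl8. Rpl41 read 335, 286 and 295 CPM in control EAE and 170, 200 and 131 CPM in cKO EAE. Its log2 fold change was -0.83 (SE 0.16, edgeR adjusted p = 0.044). The groups were far apart relative to their spread, as the lowest control library lay well above the highest cKO library.

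Rps19, a small-subunit protein whose loss causes a congenital anaemia in people, read 179, 146 and 134 CPM in control EAE and 91.6, 107 and 78.2 CPM in cKO EAE. Its log2 fold change was -0.69 (SE 0.15, edgeR adjusted p = 0.048). Rpl27 read 175, 146 and 161 CPM in control EAE and 104, 119 and 85.8 CPM in cKO EAE. The groups did not overlap for either gene. The log2 fold change of Rpl27 was -0.60 (SE 0.14, adjusted p = 0.049).

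Rpl8, which lies near the catalytic centre of the large subunit, read 338, 272 and 291 CPM in control EAE and 198, 227 and 195 CPM in cKO EAE. Its log2 fold change was -0.50 (SE 0.11, edgeR adjusted p = 0.048). Rps27 had -0.83 (SE 0.19, adjusted p = 0.049), and its sum with Rps27rt read 224, 192 and 203 CPM in control EAE and 127, 158 and 114 CPM in cKO EAE. The sums did not overlap between the groups either.

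Members with larger changes but more spread did not pass. Rpl7a had -1.45 (SE 0.35, edgeR adjusted p = 0.052) and Rplp0 -0.97 (SE 0.27, adjusted p = 0.068), and Rps27a had -0.88 (SE 0.32, adjusted p = 0.11). The log2 fold changes of Rplp1, Rplp2, Rpsa, Rps6, Rpl13a, Rpl5 and Rpl11 were -0.57, -0.73, -0.57, -0.39, -0.41, -0.59 and -0.64, with adjusted p between 0.054 and 0.23. Among the paralogs, Rps27l had -0.83 (SE 0.27) and Rpl7l1 -0.53 (SE 0.13), and Rpl22l1 had -0.27 (SE 0.25, adjusted p = 0.47). The 7 members whose groups overlapped were Rpl38, Rpl9, Rpl28, Rpl23a, Rpl17, Rpl22l1 and Rpl13a.

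The sign of the members' median was the same in each fit that left out 1 library, while the number of calls was not. All 5 calls were lost when any 1 of the 3 control EAE libraries or cKO EAE 1 was left out, and in these 4 fits no gene at all was called (0 of 18308 to 18334 genes tested). Without cKO EAE 2, 48 members were called lower (background 7.90%), and without cKO EAE 3, 33 (background 9.10%). The median stayed between -0.72 and -0.45 in these fits. As the groups did not overlap in 73 of 80 members, leaving out 1 library could hardly reverse its sign. The members moved together, so their shared direction rests on 3 libraries against 3. For scale, control basal 1 alone lay 0.78 above the rest of its own group (members' median log2 ratio). The split between subunits was small, with medians of -0.57 over 48 large-subunit and -0.62 over 32 small-subunit genes.

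Of the 21 TOP genes outside the family all 21 were negative at EAE, with a median of -0.36 and none called (16 at an unadjusted p below 0.05 in edgeR). They included Fau at -0.68 (SE 0.17, edgeR adjusted p = 0.055), Rack1 at -0.91 (SE 0.25, adjusted p = 0.066) and Pabpc1 at -1.03 (SE 0.35, adjusted p = 0.093). The medians were -0.06 for ribosome biogenesis, -0.13 for initiation and elongation factors and 0.09 for the list drawn up for the mTOR to S6 kinase axis. Those of the mitochondrial ribosomal proteins and the respiratory chain were 0.05 and 0.17. Across the 4 length classes the members' medians were -0.57, -0.61, -0.57 and -0.61, beside -0.11, -0.07, -0.04 and 0.03 for protein-coding genes.

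Summed markers of immune cells were also lower in every cKO EAE library than in every control EAE library. The summed level of 10 monocyte and macrophage markers was 9089, 5364 and 4630 CPM in control EAE and 1293, 2502 and 130 CPM in cKO EAE, against 44.4 to 81.7 CPM in the basal libraries. Ordered by this sum, the 6 EAE libraries stood in the same order as by the members' share of counts, from control EAE 1 down to cKO EAE 3. The 10 T cell markers summed to 114 to 124 CPM in control EAE and 5.59 to 55.3 in cKO EAE, and the 6 microglia markers to 1766 to 2145 and 286 to 1478. In the basal libraries these sums were 4.09 to 5.91 and 158 to 268 CPM. The values of 5.59 and 286 CPM were those of cKO EAE 3, within the basal range for T cells and just above it for microglia. Within control EAE these sums did not keep the members' order, as T cell markers were highest in control EAE 3 and microglia markers lowest in control EAE 2. None of these markers was at 0 throughout an EAE group.

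Markers of neurons went the other way. The sum of 9 neuronal markers was 2681 to 3815 CPM in control EAE and 5574 to 7348 in cKO EAE, and 7 of the 9 were called higher in cKO mice. Of the 10 monocyte markers none and of the 10 T cell markers 1 was called lower, with medians of -2.15 and -1.80 in log2. The 7 astrocyte markers summed to 7880 to 9313 CPM in control EAE and 4447 to 8713 in cKO EAE. The 4447 CPM was that of cKO EAE 3 and lay within the basal range of 2767 to 4779 CPM. The part of the cell mixture in the lower ribosomal protein level of the cKO libraries was not tested. The order did not extend to the basal state, where control basal 1 had 1.59% of its counts in members with a monocyte sum of 56.1 CPM.

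The library cKO basal 2 held 6.76% of its counts in members, but they were not evenly high. Against the mean of the other 2 libraries of its group the members' median log2 ratio was 2.93, beside -0.35 over all genes, and 72 of 81 members were over 2-fold higher. Among the members with values reported here, the ratio ran from 48.7-fold for Rpl37a, 35.5-fold for Rplp2 and 34.8-fold for Rpl38 down to 0.798-fold for Rps7. Rpl31 and Rpl30, at 0.998-fold and 0.841-fold, were also not higher. Such unevenness was not seen in control basal 1, where the median was 0.78 and 80 of 81 members were higher.

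**Figure D5:**
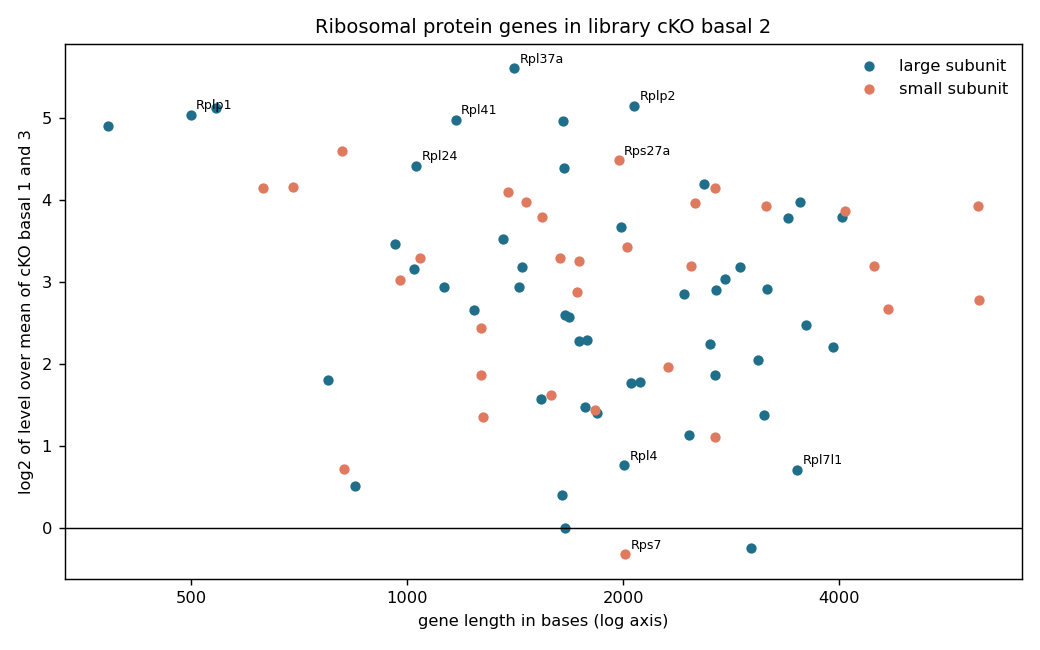
Log2 ratio of single ribosomal protein genes in cKO basal 2 to the mean of the other 2 cKO basal libraries, against gene length in bases on a log axis, coloured by subunit. The ratios drawn spread from -0.33 (Rps7) to 5.61 (Rpl37a), and genes of both subunits lie high and low.

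Gene length ordered these ratios little, with a rank correlation of -0.15 over the 81 members, and coding length somewhat more, at -0.36 (descriptions, from 1 library against 2). The same library had 1.19% of its counts in mitochondrially encoded mRNAs, against 4.10% to 6.56% in the others, and 976 CPM of 5 erythrocyte markers, against 9.87 to 99.9 CPM. Its oligodendrocyte markers summed to 63232 CPM, against 13027 to 24862. The part of these differences in the ribosomal protein level was not tested.

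The remaining comparisons contain cKO basal 2 and changed with it in size or sign. For EAE against basal in cKO mice, the members' median was -1.49 with all libraries and 0.27 without it, and no member was called in either edgeR fit. The background was 0.0323% of genes higher, 0.00538% lower and 0.0376% in all with all libraries, and 0.0315%, 0.00525% and 0.0367% without cKO basal 2. The groups did not overlap for 2 members that were higher at EAE (background 9.80%) and 1 that was lower (5.78%), and without cKO basal 2 for 31 higher (14.7%) and 1 lower (12.5%). With all libraries, 37 members had an unadjusted p below 0.05 (background 19.6%), and limma voom with sample weights called 10 higher (background 11.5%) and 1 lower (8.12%), with a median of 0.28. DESeq2 called 1 lower (background 0.456%). The smallest p were those of Rpl22l1 (-3.07, SE 0.86, edgeR adjusted p = 0.12), Rpl38 (-3.78, SE 1.17, adjusted p = 0.16) and Rps27a (-3.41, SE 1.06, adjusted p = 0.16). Without cKO basal 2 these were -0.79, -0.18 and -0.56.

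With cKO basal 2 and cKO EAE 3 left out, which leaves 2 libraries in each cKO group, the response of cKO mice had a median of 0.38. Then 63 of 81 members did not overlap between the groups and were higher at EAE (background 31.1%), and 2 were called (background 10.8%), Rplp0 at 1.10 (SE 0.23, edgeR adjusted p = 0.0058) and Rpl10 at 0.85 (SE 0.26, adjusted p = 0.048).

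In the basal state, cKO against control gave a median of 1.45 with all libraries, -0.34 without cKO basal 2 and -0.060 without control basal 1 as well. No member was called in edgeR, voom or DESeq2 with all libraries (edgeR background 0%), and none had an unadjusted p below 0.05 in edgeR (background 0.181%). The smallest p were those of Rps27a, Rpl37a and Rplp1, with log2 fold changes of 3.16 (SE 1.34), 3.62 (SE 1.63) and 3.25 (SE 1.47) and an edgeR adjusted p of 0.997 each. Rpl37a read 211, 107 and 109 CPM in control basal and 103, 4949 and 100 CPM in cKO basal, so that its difference rests on 1 library. With all libraries no member lay higher (background 2.14%) and 1 lay lower (3.64%) without overlap of the groups. Without cKO basal 2, 27 of 81 members had both cKO libraries below all 3 control libraries (background 11.1%) and none above (9.65%), none was called, and 1 had an unadjusted p below 0.05 (background 2.21%).

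The test of whether the EAE response differed between the genotypes called no member in edgeR (background 0%; 31 at an unadjusted p below 0.05, background 9.12%) or DESeq2, and 16 lower in limma voom with sample weights (background 7.35%). The members' median was -2.03 with all libraries, -0.27 without cKO basal 2 and -0.15 when cKO EAE 3 was left out too. It was -0.56 without both control basal 1 and cKO basal 2, with no member called (background 0%), and -0.51 with voom. Rps27a, Rps27 and Rps28 had the smallest p, with -4.05 (SE 1.42), -2.79 (SE 1.05) and -3.42 (SE 1.33) and an edgeR adjusted p of 0.55 each. Without cKO basal 2 these were -1.20, -0.83 and -0.88. A difference in response between the genotypes was therefore not detectable by this test, while the lower level in cKO mice at EAE is a comparison of the 2 EAE groups alone.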

How the data were processed

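Total RNA of whole spinal cord was sequenced in 12 libraries. The deposited table holds raw read counts per gene, which the authors, per the submitters' processing notes, made with HISAT2 2.0.5 (build mm10) and featureCounts 1.5.0-p3. Strand, multi-mapping and annotation release are not given in the sources used here. Multi-mapping reads decide how members share counts with pseudogenes. Counts were tested with edgeR 4.0.16 (quasi-likelihood, TMM factors, filterByExpr with a minimum count of 10, limma 3.58.1, R 4.3.3). EAE responses and the interaction used all 12 libraries, and genotype contrasts the 6 libraries of their state. Calls used a Benjamini-Hochberg threshold of 0.05, and the SE is the log2 fold change divided by the square root of F. CPM are TMM-normalised, while TPM use the table's gene lengths and percentages use library totals. Shared sequence was measured as 100-base stretches of GENCODE M21 transcripts. Promoter windows are RefSeq's. Alternatives were other scaling, no filter, a replicate block, a length offset, limma voom with sample weights, DESeq2 1.42.0, other libraries in the fit, leaving out each library, and, added after seeing the data, leaving out control basal 1 with cKO basal 2 and pooling members with their copies. The test was tried on simulated counts, with independent genes, the same spread for every gene and no outlying library. Of 100 genes changed 2-fold it recovered 100 for EAE in control and 98 for the genotypes at EAE. False calls were 9 among 18160 genes and 18 among 17738. These libraries differ from that setting, so it does not show how the test performs on them.

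The members and gene lists were chosen with earlier results of these data known. Named were the 5 highest and 5 lowest members per length, up to 5 called members in each direction per comparison (the 3 smallest p where fewer than 3 were called), the 5 that deviated most from the family, paralog pairs and 9 fixed members. P-values measure the spread between libraries labelled as biological replicates. Values of some single genes are not reported or drawn here, and these genes stayed in the counts and medians.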

Additional observations from a re-analysis of the deposited data

How the results depend on the processing

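The members' median kept its sign under all alternatives for EAE against basal in control (0.33 to 0.81 when single libraries were left out), for cKO against control at EAE (-0.72 to -0.45) and for the interaction (-2.46 to -0.27, and -0.15 without the pair cKO basal 2 and cKO EAE 3). It reversed for EAE against basal in cKO (-1.95 to 0.27 leaving out single libraries, 0.28 with voom and sample weights, 0.38 without the pair cKO basal 2 and cKO EAE 3, 0.27 without both control basal 1 and cKO basal 2) and for the basal genotypes (-0.34 to 1.87, -0.066 with voom, -0.060 without both control basal 1 and cKO basal 2). Among named genes Rpl11 reversed in control mice (-0.032 to 0.39), and in the basal genotypes Rpl37a (-0.48 to 4.16, -0.071 with voom, -0.086 without both control basal 1 and cKO basal 2) and Rplp1 (-0.31 to 3.78, -0.013 and -0.037). The number of members called in control mice, 1, on a background of 17.1% of all genes called in either direction, was 0 without the filter (6.95%), 2 with DESeq2 (12.3%), 3 with a length offset (19.4%), 79 with voom (59.8%), 29 of 80 in the fit of 6 libraries (45.6%), 43 without the pair cKO basal 2 and cKO EAE 3 (45.8%), 69 without both control basal 1 and cKO basal 2 (44.1%), and 0 to 33 leaving out single libraries (42.9% for the highest, without cKO basal 2). The 5 called at EAE between the genotypes (1.54% of all genes lower) were 2 with DESeq2's size factors (1.15%), 14 without the filter (1.39%), 67 with voom (15.5%), 71 with DESeq2's test (7.65%), 3 with a length offset (1.73%) and 0 to 48 leaving out single libraries (7.90% for the highest). They were 0 with library totals alone and in the fit of 12 libraries, where 0 of all genes were called. For EAE against basal in cKO, 11 were called with voom (background 19.6%) and 1 with DESeq2 (3.38%). Without the pair cKO basal 2 and cKO EAE 3, 2 were called (14.3%), and for the interaction 16 with voom (16.1%). By CPM without length, 2 of the 5 highest members remained. The labels give all groups replicate numbers 1 to 3, but same-numbered libraries did not deviate together (correlations from -0.414 to 0.326), so the numbers pair nothing; with the replicate block, 0 members were called in control mice (background 13.5%) and 0 at EAE between the genotypes (0 of all genes), with medians of 0.51 and -0.60. Pooling members with their copies gave 1 call in control mice (background 17.1%) and 6 at EAE between the genotypes (7.7%, or 1.56% lower). The medians were then 0.54 and -0.58. Members of fewer than 5 CPM, such as Rpl24 and Rps10, are limited by counting error as well.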
